A study of Mus musculus with 72 samples.

Results

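Oxidative phosphorylation is carried by 5 multi-protein complexes of the inner mitochondrial membrane. Complexes I to IV pass electrons from NADH and succinate to oxygen and, except for complex II, pump protons, and complex V, the ATP synthase, uses the proton gradient to make ATP. Most of the subunits are encoded in the nucleus, and neurons depend strongly on this pathway for the energy of firing. The suprachiasmatic nucleus (SCN), the hypothalamic clock that is set by light, fires in a daily rhythm. The genes described here are the rows of the expression tables whose symbol marks a nuclear subunit of complex I (Nduf), II (Sdha to Sdhd), III (Uqcr), IV (Cox4 to Cox8) or V (Atp5). The symbols take in 92 of 24883 rows, namely 36 for complex I, 7 complex I assembly factors (Ndufaf), 4 for complex II, 8 for complex III, 20 for complex IV and 17 for complex V. Complex V here means every Atp5 symbol, Atp5s and Atp5sl among them, and whether each encodes a subunit was not checked. Ndufa4 and Ndufa4l2 were counted with complex IV, to which Ndufa4 belongs. Of the 92 genes, 90 had a mean of at least 0.5 FPKM (fragments per length of transcript, scaled to the mapped fragments of the library) over all libraries and were tested, and Cox7b2 and Cox8c, paralogs best known from testis, did not. The subunits encoded in mitochondrial DNA were not analysed here.

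The samples were 72 SCN libraries from male C57BL/6 mice, with 3 libraries at each of 6 time points in 4 groups of 18. The mice were aged 8 weeks at acclimation, and so were older when tissue was taken. Mice were kept for 1 week in light-dark cycles of 12 h light and 12 h dark (LD, time in ZT) or in constant darkness (DD, time in CT), and then for 2 weeks more on the same schedule with a nitrogen-matched control diet (Ctrl) or a diet lacking tryptophan (-Trp). Each group is named by diet and schedule, such as Ctrl LD or -Trp DD. The paper gives the sample number of its RNA-seq in mice and mentions no pooling. A library is therefore taken here as tissue of a single mouse, and p-values measure the spread between these libraries.

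The columns of the deposited tables can be put in order in 2 ways, and most of the results below depend on which is used. The values of all 36 control columns that the study lists for Ctrl LD and Ctrl DD equalled, gene by gene, those of deposited columns with another name, whereas columns of the same name shared at most 0.104% of values. The 36 control columns were therefore placed by equal values and the 36 -Trp columns by continuing the same shift. This is called the matched order and is used unless stated. Each count of genes by diet, schedule or rhythm was also made with the columns as named. In the matched order, Dbp, a clock output gene, was highest at ZT12 in both LD groups, at 36.2 FPKM in Ctrl LD and 36.9 FPKM in -Trp LD, against 16.2 and 18.8 FPKM at ZT20. With the columns as named, its highest mean was at ZT4 in Ctrl LD (36.9 FPKM) and at ZT12 in -Trp LD (23.3 FPKM). In DD, Dbp was highest at CT20 (Ctrl) and CT4 (-Trp) in the matched order. By JTK_CYCLE, a rank test for a daily rhythm, Dbp, Nr1d1 and Arntl had p under 0.05 in both LD groups. Per1 and Per3 passed in Ctrl LD alone, and Per2 in no group. In DD not one of these clock genes passed on either diet, so they do not check the time axis there.

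The sum of all FPKM differed between libraries in a way that bears on every comparison of the light schedules. It was 403066 to 524705 in the 36 LD libraries and 317417 to 411944 in the 36 DD libraries, where the top value came from 1 library, -Trp DD CT4 replicate 2, and the other 35 libraries were all below the LD range. With the columns as named, the higher totals fell in 12 of 18 Ctrl LD, 1 of 18 -Trp LD, 6 of 18 Ctrl DD and 18 of 18 -Trp DD libraries. Light schedule and total therefore cannot be told apart in the matched order. In the order of the names, the total moved with the diet at 0 to 12 h, while at 16 and 20 h both diets of a schedule had totals in the same range, except for 1 -Trp LD library. All SCN marker genes were detected, with summed levels of 51.7 to 1045 FPKM. The lowest sums of the 11 SCN markers were in Ctrl DD CT12 replicate 1 (51.7 FPKM) and -Trp LD ZT20 replicate 3 (61.1 FPKM), and the first of these also had the highest oligodendrocyte marker sum of its group, 2980 FPKM.

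Nuclear genes of this pathway are known for promoter sites of the activator NRF1, which binds a GC-rich palindrome. RefSeq promoter windows, which run from 250 bases before to 50 after the start site, were matched for 73 of the 92 genes (78 windows of 32851). The exact palindrome, GCGC then AT then GCGC, lay in 7 of the 78 windows (8.97%), against 1.86% of the 13735 windows of the other tested genes and 0.971% of all windows. With the central T left free, so GCGC, A, any base and GCGC on either strand, a pattern that includes the palindrome, the shares were 25.6% (20 windows of 19 genes), 9.04% and 4.60%. The pattern was found in 7 of 32 complex I genes with a window, 2 of 6 assembly factors, 2 of 3 complex II, 1 of 5 complex III, 1 of 14 complex IV and 6 of 13 complex V genes. The following 4 stretches (GRCm38.p6, printed 5′ to 3′ on the strand of the gene) show it before the start site of genes of different complexes, with every copy in capitals. All 4 genes were higher in LD than in DD in the comparison below, but so were 88 of the 90 tested genes on each diet, so this does not set them apart.
Ndufs5, complex I, chr4:123718230-123718329, minus strand: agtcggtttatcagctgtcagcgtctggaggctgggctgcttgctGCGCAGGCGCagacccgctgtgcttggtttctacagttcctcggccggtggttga
Ndufaf4, complex I assembly, chr4:24897925-24898024, plus strand: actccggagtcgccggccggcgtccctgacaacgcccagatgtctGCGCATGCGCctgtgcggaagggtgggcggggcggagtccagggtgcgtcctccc
Cox6a1, complex IV, chr5:115349066-115349165, minus strand: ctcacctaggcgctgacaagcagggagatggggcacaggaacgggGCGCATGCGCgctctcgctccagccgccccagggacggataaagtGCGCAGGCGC
Atp5h, complex V, chr11:115420006-115420105, minus strand: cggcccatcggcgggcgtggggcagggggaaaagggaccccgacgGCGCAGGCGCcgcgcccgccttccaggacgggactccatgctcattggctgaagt
The stretches of Ndufs5, Ndufaf4 and Atp5h overlap no annotated gene, and that of Cox6a1 overlaps an exon of the noncoding Gm42903 on the other strand. The closest base of the pattern lies 89, 104, 108 and 132 bases before the start site in Ndufs5, Ndufaf4, Cox6a1 and Atp5h. Of the other motifs searched, AAGATGGCG, known from YY1, was found in 8.97% of the 78 windows against 2.64% of those of the other tested genes, TGACCTTG, known from ERR alpha, in 5.13% against 1.15%, CCGGAAGT, known from ETS factors such as GABPA, in 6.41% against 7.06%, and the E-box CACGTG in 7.69% against 9.53%, each on either strand. A match is a description of these letters and not of binding. The 19 genes with the NRF1 pattern had a median LD minus DD difference of 0.89 on the log2 scale on the Ctrl diet, and the 53 tested genes with a window and no match had 0.90.

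The summed FPKM of the 92 genes was 28000 ± 2367 (SD, n = 18) for Ctrl LD and 27926 ± 3008 for -Trp LD. It was 13872 ± 1107 for Ctrl DD and 15176 ± 2168 for -Trp DD. As a share of the total, this was 5.48% to 6.85% in LD and 3.69% to 5.50% in DD. The ranges of the summed FPKM did not overlap between LD (22099 to 35931) and DD (11913 to 20424). FPKM is per length, so levels can be compared between genes, but only roughly. The difference between LD and DD moved with transcript length (below), so ranks of genes carry this limit. The highest gene of complex I was Ndufa3 (624 ± 60.4 FPKM in Ctrl LD), of complex III Uqcrh, the hinge protein (831 ± 87.3 FPKM), of complex IV Cox4i1, the main subunit 4 (1215 ± 135 FPKM), and of complex V Atp5k, the e subunit of the ATP synthase (1327 ± 142 FPKM). Sdha, the flavoprotein that oxidises succinate, was the highest of complex II (208 ± 16.2 FPKM). The assembly factors, which build complex I and do not stay in it, were lower, from 7.67 FPKM (Ndufaf4) to 58.5 FPKM (Ndufaf2) in Ctrl LD.

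**Figure D1:**
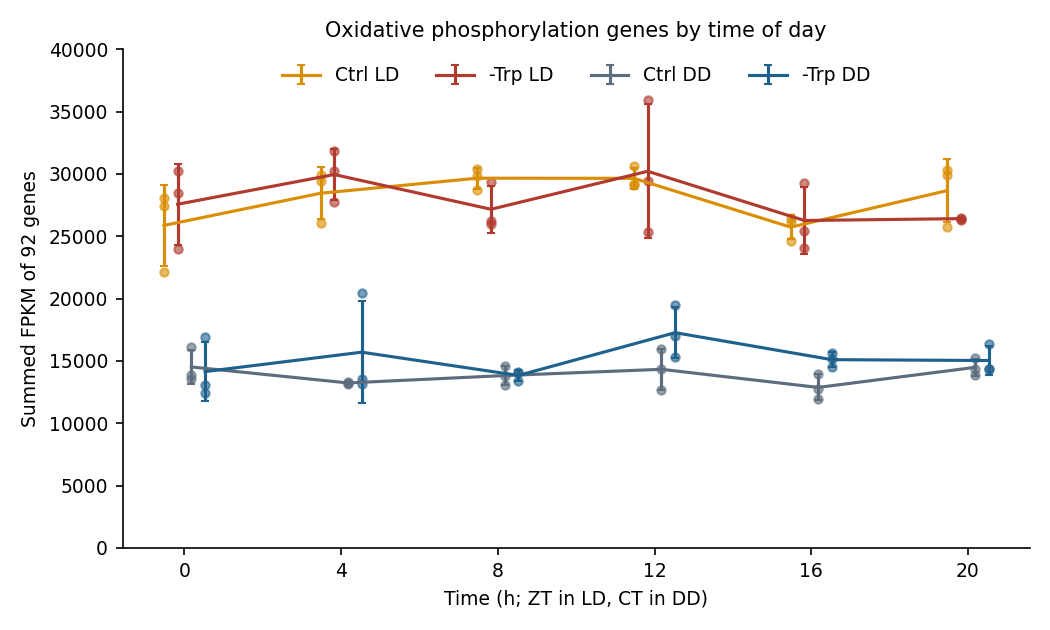
Summed FPKM of the 92 genes against time of day in the matched order. Points are single libraries, lines join the means of 3 libraries and bars are SD. All 36 LD libraries lie at 22099 or more, and all 36 DD libraries at 20424 or less.

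Among paralogs, which are alternative forms of 1 subunit, the form used in most tissues was above the form known from few tissues or conditions in all 72 libraries. In Ctrl LD the ratio of mean FPKM was 743 for Cox4i1 over Cox4i2, 112 for Cox6a1 over Cox6a2, 121 for Cox6b1 over Cox6b2, 27.4 for Cox7a2 over Cox7a1 and 540 for Ndufa4 over Ndufa4l2. Cox8b, the muscle form of subunit 8, was at 0.710 ± 0.409 FPKM in Ctrl LD and was listed at 0 in 13 libraries, against 792 ± 88.0 FPKM for Cox8a, and Cox8c was listed at 0 in 69 libraries. The muscle markers Ckm, Acta1 and Myh1 summed to 1.53 to 9.34 FPKM over all libraries. Cox7a2 and Cox7a2l, the latter a factor for respiratory supercomplexes, were close, with ratios of 1.10 to 1.23 in the 4 groups. The 3 genes of the c subunit of the ATP synthase encode the same mature protein, and Atp5g3 made up 56.3% ± 1.29 of their summed FPKM in Ctrl LD and 51.1% ± 0.893 in Ctrl DD, while Atp5g2 made up 23.4% ± 1.33 and 27.3% ± 0.902. Annotated transcript lengths were 2675.5 bases for Atp5g1, 586 for Atp5g2 and 718.5 for Atp5g3, and the part of length in these shares was not tested.

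The first comparison asked how the light schedule changed these genes. In the matched order, 88 of 90 were higher in LD than in DD on each diet and 0 were lower (limma, Benjamini-Hochberg adjusted p under 0.05), where 41.0% of all 14425 tested genes were higher and 37.7% lower on the Ctrl diet, and 41.7% and 37.9% on the other. The median difference was 0.89 on the log2(FPKM + 0.5) scale on the Ctrl diet, a fold of 1.85, and 0.73 on the -Trp diet, a fold of 1.66, against 0.02 for all tested genes on both diets. Complex III had the highest median on both diets, 0.95 and 0.90, and the assembly factors the lowest, 0.59 and 0.54. In 48 of the 90 genes the lowest LD library lay above the highest DD library, which held for 4.36% of all tested genes. Without -Trp DD CT4 replicate 2 this was so in 62 genes, and in 9.66% of all. Without Ctrl DD CT12 replicate 1, the library low in SCN markers, 88 genes were still higher on the Ctrl diet, and without -Trp LD ZT20 replicate 3, 87 on the -Trp diet. For these 2 fits the share of all genes is not given here.

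In complex II all 4 genes were higher in LD with no overlap. Sdhc, a membrane anchor of the complex, had the smallest p on the Ctrl diet. It had a lowest, median and highest value of 108, 131 and 143 FPKM in Ctrl LD and 105, 123 and 152 FPKM in -Trp LD. In DD these were 55.8, 64.2 and 69.0 FPKM on the Ctrl diet and 50.8, 61.3 and 81.5 FPKM on the other. Every LD library was above every DD library, and the difference was 0.91 ± 0.03 (log2, SE; 18 against 18 libraries, limma adjusted p = 6.99e-21) on the Ctrl diet and 0.95 ± 0.04 (adjusted p = 2.46e-18) on the -Trp diet. Sdhb, the iron-sulfur subunit, had medians of 196 FPKM in Ctrl LD and 96.5 FPKM in Ctrl DD. Sdha moved least of the 4, by 0.42 and 0.47 on the log2 scale, and Sdhd, the other anchor, by 0.64 and 0.49.

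In complex III, Uqcrfs1, the Rieske iron-sulfur protein, ranged from 101 to 146 FPKM over the LD libraries and from 49.4 to 84.3 FPKM over the DD libraries. Its difference on the Ctrl diet was 0.99 ± 0.04 (log2, SE). Uqcrc1, a core protein, was at a median of 202 and 204 FPKM in LD (Ctrl and -Trp) and of 102 and 93.3 FPKM in DD, and its difference on the -Trp diet was 1.04 ± 0.05. The LD and DD libraries overlapped in neither gene. In complex I, Ndufb8 had a median of 411 FPKM in Ctrl LD and 176 FPKM in Ctrl DD, a difference of 1.10 ± 0.05. Ndufs1, the largest subunit of complex I, was the gene of this complex that differed least, by 0.27 ± 0.06 and 0.17 ± 0.05, and its LD and DD ranges overlapped, from 37.8 to 74.0 FPKM and from 44.4 to 60.04 FPKM.

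In complex V, Atp5a1, the alpha subunit of the catalytic head, had the smallest p on the -Trp diet, with 443, 503 and 574 FPKM as lowest, median and highest in -Trp LD and 245, 280 and 346 FPKM in -Trp DD. Its difference was 0.76 ± 0.03 (log2, SE; adjusted p = 7.89e-19 by limma). Atp5d, the delta subunit, had the widest difference of the complex, 1.15 ± 0.07 and 1.26 ± 0.07. The genes that did not pass were Cox6a2 (0.11 ± 0.15) and Cox8b (0.11 ± 0.20) on the Ctrl diet and Cox8b (0.05 ± 0.19) and Atp5s, a coupling factor (0.08 ± 0.05), on the -Trp diet.

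**Figure D2:**
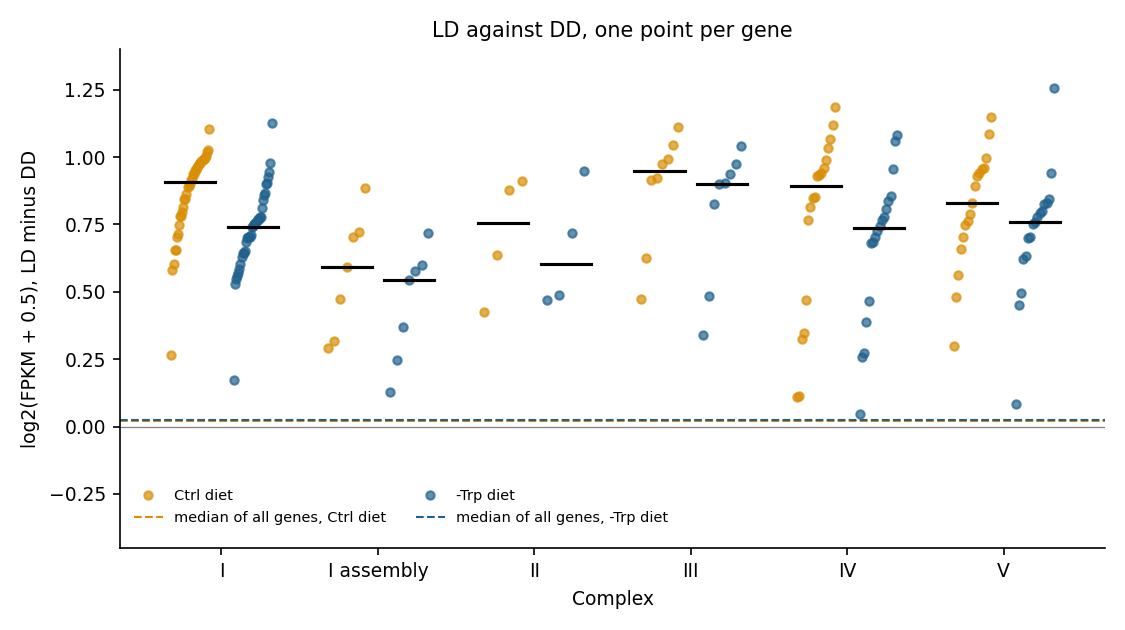
Difference between LD and DD on the log2(FPKM + 0.5) scale for each of the 90 tested genes by complex, in the matched order. Bars are medians of a complex and dashed lines the median of all 14425 genes tested, 0.02 on both diets. All points lie above 0.

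Several other properties moved with this difference. Transcript length was one of them. The 89 tested members with an annotated transcript had a median length of 865 bases, against 2879 bases for 13704 other genes. The difference was smaller in longer genes outside the pathway too. On the Ctrl diet the median LD minus DD difference of other genes was 0.51 under 750 bases, 0.44 from 1000 to 1500 bases, 0.01 from 2500 to 4000 bases and -0.33 from 4000 bases. Members were above other genes of like length, with medians of 0.92, 0.86 and 0.42 in the first 3 of these ranges. After the length trend was removed within each library, 79 of 89 were higher and 2 lower on the Ctrl diet (median 0.39), and 78 higher and 2 lower on the -Trp diet (median 0.35). Of all 13793 genes in that fit, 5218 were higher and 4961 lower on the Ctrl diet, and 5506 and 5197 on the -Trp diet. Level moved with it too, and the 288 other genes with a mean of 200 FPKM or more had a median of 0.64, against 0.94 for the 41 members at that level. When each library was scaled to the same sum, the median of all genes shifted to -0.32 (Ctrl) and -0.28 (-Trp), and those of the members to 0.51 and 0.39, with 79 genes higher on each diet and 0 and 4 lower. Of all 14425 genes, 2455 were then higher and 9345 lower on the Ctrl diet, and 2703 and 8962 on the -Trp diet.

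**Figure D3:**
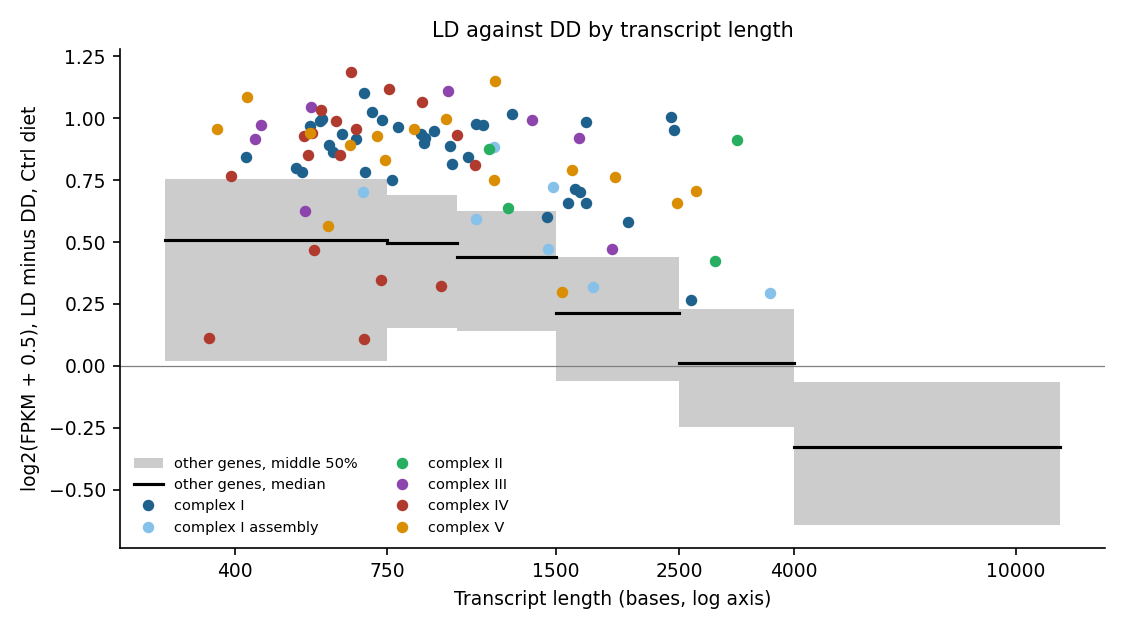
Difference between LD and DD on the Ctrl diet (log2 scale) against transcript length in bases (log axis). Grey boxes span the middle 50% of other tested genes in 6 length ranges with their median as a line, and coloured points are the members. Other genes fall from a median of 0.51 under 750 bases to -0.33 from 4000 bases, and the members lie mostly above the boxes.

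Other gene groups moved alongside. The cytosolic ribosomal protein genes were higher in LD in 79 of 80 on each diet, with medians of 0.75 and 0.58, the mitochondrial ribosomal protein genes in 75 of 77 (0.65 and 0.54), the genes of mitochondrial import in 20 and 19 of 23 (0.62 and 0.53), and those of the citric acid cycle in 12 and 11 of 13 (0.41 and 0.40). Cycs (cytochrome c), the phosphate carrier Slc25a3 and the ATP/ADP carriers Slc25a4 and Slc25a5 were all higher. The regulators of this pathway did not share a direction, with 3 of 12 higher and 6 lower on the Ctrl diet. Ppargc1b, a coactivator of mitochondrial genes, was lower in LD, at 0.884 FPKM against 2.38 FPKM, and the nuclear receptor Esrra was higher, at 16.4 against 8.33 FPKM, as was Tfam, which packages mitochondrial DNA, at 12.1 against 8.18 FPKM. Nrf1 was lower, at 5.66 against 6.34 FPKM. A set of 6 noncoding RNAs chosen after seeing the values, among them Meg3 (201 against 819 FPKM) and Snhg11 (192 against 593 FPKM), was lower in LD, with medians of -2.03 and -2.24. Of 5 oligodendrocyte markers 4 were higher in LD on the Ctrl and 5 on the -Trp diet, with summed levels of 1663 to 2974 FPKM in Ctrl LD and 950 to 2980 FPKM in Ctrl DD. Of 4 neuronal markers 3 and 4 were higher, with sums of 807 to 1181 FPKM and 584 to 1396 FPKM. Oxt, of the magnocellular neurons beside the SCN, was higher in LD by 1.93 on the log2 scale on the Ctrl diet, with 1100 to 2288 FPKM in Ctrl LD and 21.0 to 856 FPKM in Ctrl DD. SCN markers were split, with 6 of 11 higher and 4 lower on the Ctrl diet (Nms 0.97, Syt10 -1.44 and Six6 -0.92) and 1 higher and 4 lower on the -Trp diet. On the Ctrl diet 2 of 5 ependymal and choroid plexus markers were higher (Ccdc153 and Tmem212, both 1.02) and 1 lower, 1 of 5 astrocyte markers was higher and 2 lower (Aqp4 -0.64), 1 of 4 endothelial markers was higher and 1 lower, 1 of 4 microglial markers was higher, and 0 of 3 erythrocyte markers passed. The part of length, of the total and of these groups in the difference was not tested. In bulk tissue, fewer cells of a type and less RNA per cell cannot be told apart.

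With the columns as named, the direction of the light comparison was not kept. On the -Trp diet 88 of 90 genes were lower in LD (median -0.88), where 40.3% of all genes were lower. On the Ctrl diet 0 of 90 passed (median 0.19, with 5.70% of all genes called), since 84 genes were higher at 0 to 12 h (median 0.70, with 39.9% of all genes higher) and 88 were lower at 16 and 20 h (median -0.81, with 37.4% of all lower).

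The second comparison asked what the -Trp diet changed. In LD, 0 of 90 genes differed (limma, adjusted p under 0.05), and 1.12% of all genes were called. An unadjusted p under 0.05 was found for 2 of the 90 and for 1870 of all 14425 genes. The median difference between the diets was 0.01. The smallest p was that of Atp5a1, with 485 ± 36.4 FPKM on the Ctrl and 507 ± 33.5 FPKM on the -Trp diet (0.08 ± 0.03 on the log2 scale, limma adjusted p = 0.109). The lowest was Cox8b, at -0.32 ± 0.19. In the sums of complexes I, II, III, IV and V the ranges of the diets overlapped.

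In DD, 24 of 90 genes were higher on the -Trp diet and 0 were lower, where 7.31% of all genes were higher and 6.34% lower. The median was 0.13 on the log2 scale, a fold of 1.09, against 0.01 for all genes. The calls fell in complex I (14 of 36), the assembly factors (2 of 7), complex II (1 of 4), complex IV (4 of 18) and complex V (3 of 17), with 0 of 8 in complex III, where 4 had an unadjusted p under 0.05. Of all 14425 genes, 4577 had an unadjusted p under 0.05. The smallest p was that of Ndufab1, the mitochondrial acyl carrier protein, which is also a subunit of complex I. It had a lowest, median and highest value of 51.8, 65.3 and 83.8 FPKM in Ctrl DD and 67.5, 77.4 and 104 FPKM in -Trp DD. The ranges overlapped and the difference was 0.29 ± 0.06 (log2, SE; limma adjusted p = 0.00778). Ndufa2 was at 96.5, 110 and 129 FPKM in Ctrl DD and at 109, 125 and 178 FPKM in -Trp DD (0.25 ± 0.06, adjusted p = 0.00854 by limma). Sdhd was at 54.5, 58.7 and 64.9 FPKM in Ctrl DD and 57.5, 62.3 and 81.9 FPKM in -Trp DD (0.14 ± 0.03). For all 3, the highest value was in -Trp DD CT4 replicate 2, the library with a total in the LD range, which also had the highest erythrocyte marker sum, 1948 FPKM. Without that library 19 genes passed, and the share of all genes in that fit is not given here.

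Of the genes with a value below 0 in DD, those with the smallest p were Sdhc (-0.07 ± 0.03), Uqcrc1 (-0.08 ± 0.04) and Cox4i2, the lung and oxygen-sensitive form of subunit 4 (-0.14 ± 0.10), and 0 of these passed. Between paralogs, Atp5g2 passed (0.15 ± 0.05) and Atp5g1 (0.00 ± 0.04) and Atp5g3 (0.08 ± 0.04) did not, and Cox7a2l (0.16 ± 0.04) and Cox8a (0.20 ± 0.07) passed.

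**Figure D4:**
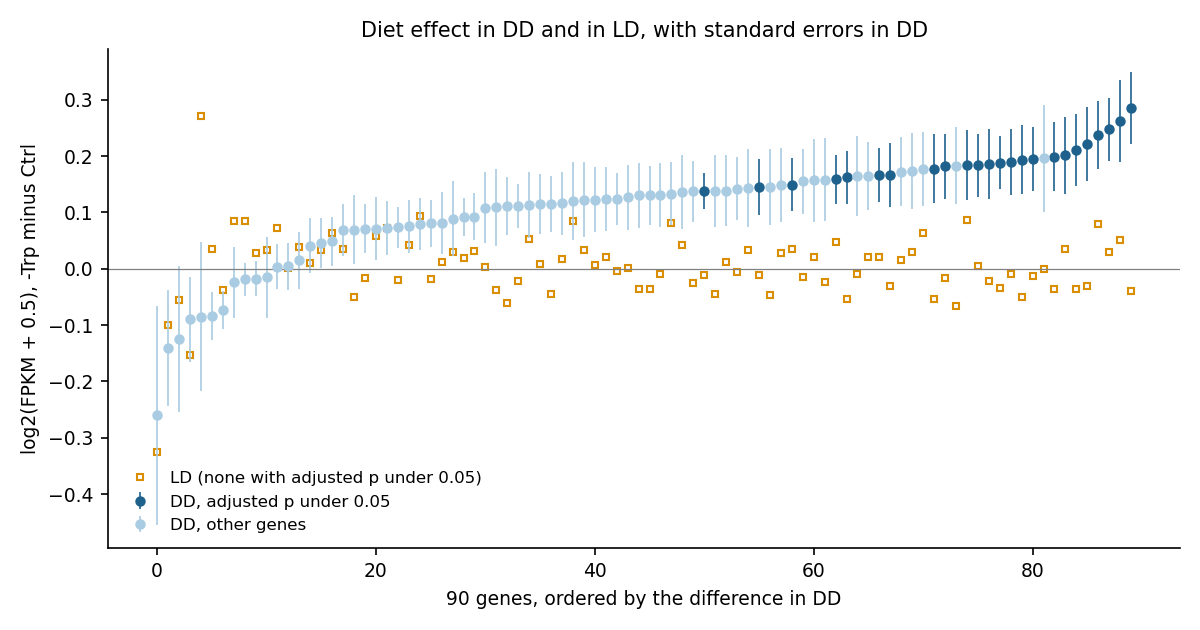
Difference between the -Trp and Ctrl diets (log2 scale) for the 90 tested genes in the matched order, ordered by the difference in DD. Circles with SE bars are DD, dark where the adjusted p was under 0.05 (24 genes), and open squares are LD, where 0 genes passed.

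The count in DD depended on the time of day and on single libraries. With CT12 left out, 3 genes passed, at 0 to 8 h 0 genes, and at 12 to 20 h 15 genes. Of all 14425 genes, 1968 passed over all time points, 637 without CT12, 45 at 0 to 8 h and 457 at 12 to 20 h, so that fewer calls were made in every window. In -Trp DD, 67 of 90 genes had their highest mean at CT12. They were read in the same 3 libraries, so they are not independent, and the share of all genes is not given here. The summed FPKM at CT12 was 17017, 15328 and 19443 in the 3 -Trp DD libraries and 15959, 14370 and 12641 in the 3 Ctrl DD libraries. Of the -Trp libraries 2 lay above and 1 below the highest Ctrl library, so that the groups overlapped. The highest of them, replicate 3, had the lowest SCN marker sum of its group, 214 FPKM. The count was 11 without -Trp DD CT12 replicate 3 or without -Trp DD CT0 replicate 1, 12 without -Trp DD CT20 replicate 1, 14 without Ctrl DD CT16 replicate 1 or Ctrl DD CT16 replicate 3, 15 without Ctrl DD CT12 replicate 3, Ctrl DD CT20 replicate 2 or -Trp DD CT16 replicate 1, 37 without -Trp DD CT0 replicate 2 and 41 without Ctrl DD CT0 replicate 1. The share of all genes in these fits is not given here, so the changes cannot be called particular to the pathway. The cytosolic ribosomal protein genes were higher in 65 of 80 (median 0.19), the mitochondrial ribosomal protein genes in 25 of 77 (0.13) and those of mitochondrial import in 8 of 23 (0.13), while the citric acid cycle genes gave 3 higher and 2 lower of 13. Other genes under 750 bases had a median of 0.12 against 0.14 for members, and with the length trend removed 8 of 89 were higher and 1 lower, where 818 of 13793 genes were higher and 793 lower. Erythrocyte markers summed to a median of 682 FPKM in -Trp DD and 425 FPKM in Ctrl DD, and the oligodendrocyte marker Mag (66.5 FPKM in Ctrl DD and 50.7 FPKM in -Trp DD) was lower on the -Trp diet. The part of these in the difference was not tested.

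The difference between the diet effects in LD and in DD passed for 6 of 90 genes, all lower in LD than in DD, where 2.33% of all genes were lower and 5.37% higher. These were Ndufab1 (-0.32 ± 0.09), Sdhd (-0.15 ± 0.04), Atp5s (-0.22 ± 0.06), Ndufaf6 (-0.22 ± 0.07), Ndufc2 (-0.25 ± 0.08) and Ndufv2 (-0.24 ± 0.08). In each, the diet difference was between -0.05 and -0.01 in LD and between 0.14 and 0.29 in DD. With ZT12 and CT12 left out, 0 genes passed, and of all genes 59 were then lower, against 336 over all time points. In that fit 18 of the 90 genes and 2973 of all 14425 genes had an unadjusted p under 0.05 (limma). The count was 3 without -Trp DD CT12 replicate 3 or -Trp LD ZT0 replicate 2, 11 without -Trp LD ZT12 replicate 3 or -Trp DD CT0 replicate 2, and 15 without Ctrl DD CT0 replicate 1. For these fits too, the share of all genes is not given here.

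With the columns as named, the diets differed widely, with 84 genes lower on the -Trp diet in LD (median -0.55, where 34.4% of all genes were lower) and 84 higher in DD (median 0.50, where 37.0% were higher). At 16 and 20 h alone, 0 of 90 genes differed by diet in LD (0.0555% of all genes called) and 0 in DD (0% called). By limma, 5 and 8 members there had an unadjusted p under 0.05, where 2436 and 1426 of all 14425 genes did.

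The third comparison asked whether these genes oscillate over the day, and whether the diet changes that. At a JTK_CYCLE p under 0.05, for a period of 24 h, 12 of 90 were called in Ctrl LD, where 10.8% of all genes were, and 5 in Ctrl DD (6.50% of all). On the -Trp diet 0 were called in LD (11.1% of all genes) and 0 in DD (1.79%). In each group, 0 were called after Benjamini-Hochberg adjustment. The counts on the Ctrl diet were near the share of all genes, so they do not set these genes apart. The clock genes Per1, Per2, Per3, Dbp, Nr1d1 and Arntl were not called in either DD group. The 12 of Ctrl LD were Atp5f1, Atp5g1, Atp5g2 and Atp5j of the ATP synthase, Cox6a2 and Cox7b of complex IV, Ndufb3 and Ndufv2 of complex I, Ndufaf3 and Ndufaf5, Sdhb and Uqcrb. Except for Cox6a2, their highest mean was 1.13 to 1.32 times the lowest. The highest mean lay at ZT4, ZT8 or ZT12 in all 12, in the light phase or at its end, and the lowest at ZT16, ZT20 or ZT0. The peak times of the other called genes are not given here, so these times cannot be called particular to the pathway. Atp5j, the coupling factor 6 subunit, had means of 446 ± 14.8 FPKM (SD, n = 3) at ZT8 and 361 ± 28.3 FPKM at ZT16. Among all 90 tested genes in Ctrl LD, 33 had their highest mean at ZT8 and 30 at ZT12, and 45 had the lowest at ZT16 and 34 at ZT0. These genes were read in the same libraries, so the counts are not independent, and the share of all genes is not given here.

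Cox6a2 and Ndufaf5 were the genes called in both control groups. Cox6a2, the muscle form of subunit 6a, rose in Ctrl DD from 1.77, 2.61 and 2.48 FPKM at CT0 to 9.88, 5.42 and 4.33 FPKM at CT12 (p = 0.00203 by the exact null of JTK_CYCLE). The 3 libraries at CT12 were all above those at CT0, but these times were picked from the same values that gave the call. The highest library was Ctrl DD CT12 replicate 1, which was low in SCN markers. In Ctrl LD it went from 2.46, 2.89 and 4.21 FPKM at ZT0 to 3.77, 10.95 and 4.37 FPKM at ZT8 (p = 0.0441, exact), and these overlapped. The call in Ctrl DD remained in all 18 fits without 1 library, with a largest p of 0.00839 (exact), and that in Ctrl LD in 5 of 18. On the -Trp diet its p was 1 in both schedules. Its paralog Cox6a1 was not called in any group. Ndufaf5, an assembly factor, had its highest mean at ZT4 in Ctrl LD (18.6 FPKM) and at CT0 in Ctrl DD (9.997 FPKM), and was called in 7 and 13 of 18 fits without 1 library. The other calls in Ctrl DD were Cox7a2l, Ndufaf7 and Sdhc, with the highest mean at CT20 in each and at 1.12 to 1.20 times the lowest.

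**Figure D5:**
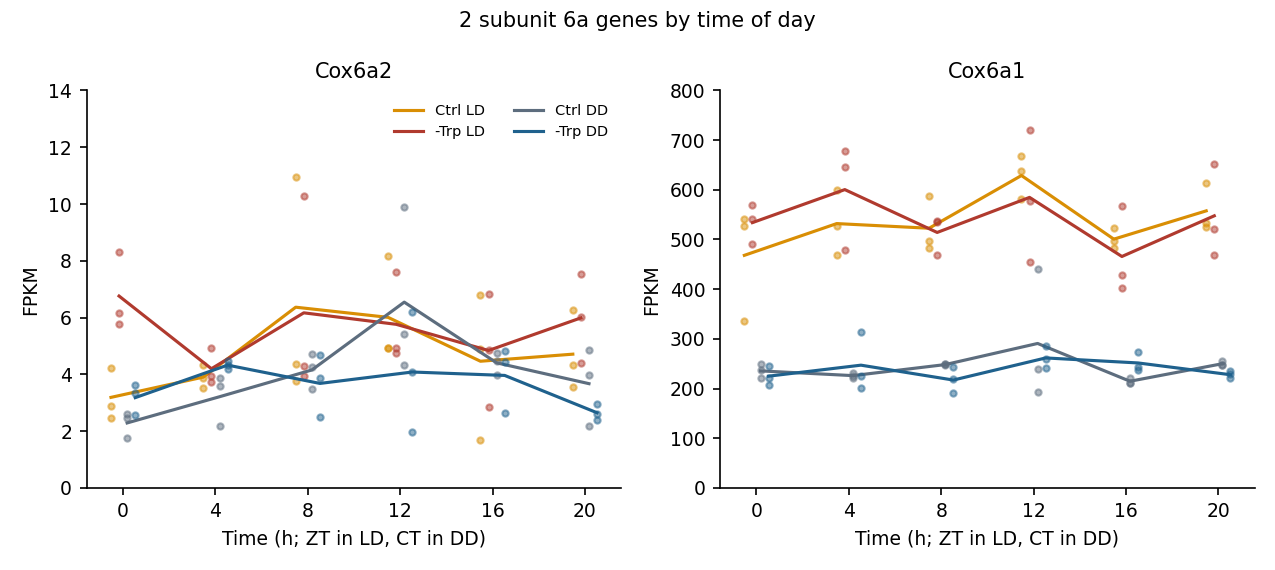
FPKM of Cox6a2 and Cox6a1 against time of day in the 4 groups, in the matched order. Points are single libraries and lines join the means of 3. Cox6a2 rises from a mean of 2.29 FPKM at CT0 to 6.54 FPKM at CT12 in Ctrl DD, and Cox6a1 separates LD from DD libraries with 1 exception, Ctrl DD CT12 replicate 1 at 439.8 FPKM among DD libraries otherwise at or under 314 FPKM.

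The counts of called genes changed with single libraries, and the share of all genes in these fits is not given here. In Ctrl LD, 26 were called without ZT20 replicate 1, 2 without ZT20 replicate 3, 3 without ZT8 replicate 3, 5 without ZT4 replicate 2, ZT16 replicate 2 or ZT16 replicate 3, and 6 without ZT4 replicate 3, ZT8 replicate 1, ZT8 replicate 2 or ZT12 replicate 1. In -Trp LD, 5 were called without ZT12 replicate 3, 2 without ZT8 replicate 3 and 1 without ZT0 replicate 2, ZT16 replicate 3 or ZT20 replicate 1. In Ctrl DD, 2 were called without CT20 replicate 1 and 3 without CT8 replicate 1 or CT20 replicate 3. In -Trp DD, 32 were called without CT4 replicate 2, 31 without CT0 replicate 1, 2 without CT20 replicate 1 and 1 without CT12 replicate 3 or CT16 replicate 1. The difference of the rhythm between the diets was tested in 1 cosine model per schedule. It passed for 0 of 90 genes in LD (0% of all genes called, 0 members and 482 of all genes with an unadjusted p under 0.05) and for 0 of 90 in DD (0.0347% called, 5 members and 973 of all genes under 0.05). With the columns as named, 81 genes were called in Ctrl LD (59.8% of all genes), 17 in Ctrl DD (42.3%), 2 in -Trp LD (3.13%) and 6 in -Trp DD (10.1%), and the rhythm differed by diet in 84 genes in LD (52.0%) and 44 in DD (35.0%).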

How the data were processed

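SCN tissue was lysed in TRIzol, and poly(A) RNA was made into libraries with a strand-marking kit. Per the labels, the authors trimmed reads with Trimmomatic, aligned them to mm10 with TopHat and deposited FPKM values from Cufflinks, with versions not given in the sources used here. FPKM carries no read numbers, so depth per library is unknown and errors are the spread between libraries.

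For differences, FPKM was scaled by median of ratios over 72 libraries, and log2(FPKM + 0.5) was fitted with limma 3.58.1 (R 4.3.3), with time point as a factor, for the 14425 genes whose mean reached 0.5 FPKM. Calls are Benjamini-Hochberg adjusted p under 0.05. Folds are on the log2(FPKM + 0.5) scale and understate the change of low genes. Rhythms were called by JTK_CYCLE (24 h, exact null, Bonferroni over 6 lags, p under 0.05) on FPKM as deposited, written in Python 3.11.15 with numpy 2.4.6, pandas 2.3.3, scipy 1.17.1 and matplotlib 3.10.9. Both were tested on simulated data. Columns were placed where values of at least 0.05 FPKM equalled the study's list of control samples within a relative 0.0001, and the placing of the -Trp columns is inferred.

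The members and lists were chosen with earlier results of these data known. Named genes are the 3 with the smallest p in each direction of a comparison, those called by JTK_CYCLE on both diets (0 genes), the Sdh genes, paralogs with tissue-specific forms and the highest gene of each complex. Others named (Atp5d, Ndufs1, Cox7a2l and Cox8a in DD, assembly factors and rhythm calls) were chosen after their values were seen. Alternatives were another pseudocount (0.1, 1), filter (1 FPKM, no filter), scaling, a lowess removal of the length trend, a replicate block, columns as named, and each library left out. Time windows were added after seeing the data. Promoter windows are RefSeq, GRCm38.p6. The diet result of a single marker gene is not reported here.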

Additional observations from a re-analysis of the deposited data

Results flagged for a closer look

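The diet difference (-Trp minus Ctrl, log2 scale) was called different between LD and DD for 6 of 90 genes. The test was limma's interaction over 72 libraries with adjusted p under 0.05. Of all genes, 2.33% were called lower and 5.37% higher. The LD value minus the DD value was -0.32 for Ndufab1 (adjusted p = 0.0188), -0.15 for Sdhd (adjusted p = 0.0210), -0.22 for Atp5s (adjusted p = 0.0268), -0.22 for Ndufaf6 (adjusted p = 0.0316), -0.25 for Ndufc2 (adjusted p = 0.0402) and -0.24 for Ndufv2 (adjusted p = 0.0448). In 72 fits without 1 library, Ndufab1, Sdhd and Atp5s passed in 72, Ndufaf6 in 70, Ndufc2 in 49 and Ndufv2 in 38. Of 9 alternative settings, Ndufab1 passed in 9 and each other gene in 7. With 12 h left out, 0 genes passed.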

How the results depend on the processing

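The column order decided most results. With the columns as named, the diet called 84 genes in LD and 84 in DD, the light schedule 0 on the Ctrl diet and 88, all lower in LD, on the -Trp diet, and the interaction 85. Of all 14425 genes, the diet called 9433 in LD and 10253 in DD. The light schedule called 822 on the Ctrl and 11249 on the -Trp diet, and the interaction 11188. Rhythm calls were then 81 and 17 on the Ctrl diet in LD and DD, and 2 and 6 on the -Trp diet, and the rhythm differed by diet in 84 genes in LD and 44 in DD. At 0 to 12 h of that order the diet called 86 in LD and 88 in DD, the light schedule 87 lower on the -Trp diet, and the interaction 87. Of all 14425 genes, the diet then called 10449 in LD and 11069 in DD. The light schedule called 5436 lower on the -Trp diet, and the interaction called 11724. At 16 and 20 h the diet in DD called 0, the light schedule 88 lower on the Ctrl and 85 lower on the -Trp diet, and the interaction 0. Over all genes these calls were 0, 5389 lower, 4685 lower and 0. These windows, and those that follow, were chosen after seeing the data.

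In the matched order, the 24 genes called by diet in DD became 15 on FPKM as deposited, 14 (12 higher, 2 lower) with equal sums, 11 with no filter, 9 (8 higher, 1 lower) with the length trend removed, 0 at 0 to 8 h, 15 at 12 to 20 h and 3 without 12 h. Calls over all genes were 1430 of 14425 as deposited and 2369 of 14425 (323 higher, 2046 lower) with equal sums. They were 1356 of 24883 with no filter and 1611 of 13793 with the length trend removed. The 6 genes of the interaction became 3 with no filter, 3 with the length trend removed (2 of them higher in LD), 0 at 0 to 8 h, 2 at 12 to 20 h and 0 without 12 h. Over all genes the interaction called 815 of 24883 with no filter and 1095 of 13793 with the length trend removed. It called 345 at 0 to 8 h, 182 at 12 to 20 h and 257 without 12 h. Rhythm calls in Ctrl LD became 4 with median-of-ratios FPKM, 6 with equal sums, 7 in a cosinor model (unadjusted p under 0.05, as for JTK_CYCLE) and 0 after Benjamini-Hochberg adjustment. In -Trp LD they became 3 with equal sums and 1 in the cosinor model. In Ctrl DD they became 3 with median-of-ratios FPKM and 0 after adjustment. In -Trp DD they became 1 with median-of-ratios FPKM, 1 with no filter and 1 in the cosinor model. The causes were not tested. The share of all genes is not given for these rhythm alternatives or for the fits without 1 library that follow. Leaving out 1 library gave 11 to 41 genes for diet in DD, 0 to 0 in LD, 88 to 88 and 86 to 88 for the light schedule on the Ctrl and -Trp diets, 3 to 15 for the interaction, 2 to 26 and 2 to 6 rhythm calls on the Ctrl diet in LD and DD, 0 to 5 and 0 to 32 on the -Trp diet, and 0 to 0 for the rhythm difference in each schedule.

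The replicate numbers did not pair the samples. Deviations correlated over 0.1 in 23.3% of 828 pairs of libraries with the same number and in 21.4% of 1656 other pairs. With the replicate block, 23 genes were called by diet in DD, 0 in LD, 88 by light schedule on each diet, 6 by the interaction and 0 for the rhythm difference in each schedule, and the blocked cosinor model gave an unadjusted p under 0.05 for 5 and 2 genes on the Ctrl diet in LD and DD, and for 0 and 1 on the -Trp diet. Of all 14425 genes, that cosinor model gave such a p for 2001 and 1043 on the Ctrl diet, and for 2168 and 312 on the -Trp diet. After Benjamini-Hochberg adjustment both cosinor models called 0 genes in every group. With no counts, the precision of single values is unknown, and low genes such as Cox8b are the least certain.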
